A study of Mus musculus with 7 samples.

Results

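The genes described are 10 chaperones, disulfide isomerases and transcription factors of the endoplasmic reticulum (ER) and its unfolded protein response: Hspa5, Hsp90b1, Calr, Dnajb9, Pdia3, Pdia4, Pdia6, Xbp1, Atf6 and Ddit3. They were taken by name, with every probe that the array annotation maps to them. Of 16593 genes on the array, 9 of these 10 had a probe, 11 probes in all of 25697. No probe was mapped to Atf6, which is not analysed here. Expression was measured on 7 arrays in megakaryocyte-erythroid progenitors, bone marrow cells that form platelets and red cells, from female C57BL/6 mice. The double knockout group (DKO) held 3 arrays from mice lacking SSB1 and SSB2 (genes Nabp2 and Nabp1), which bind single-stranded DNA, and the control group held 4 arrays from wild-type mice. The cells had been sorted as c-Kit+ and Sca-1- with low lineage, CD34 and CD16/32 staining. The labels read here give no age, no driver of the deletion and no word on pooling of mice. They do not state either that the samples of a group came from separate mice, so p-values measure the spread between these samples, which may be technical.

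Secreted and membrane proteins fold in the ER, where Hspa5 (BiP) and Hsp90b1 (GRP94) hold unfolded chains, Calr holds chains that carry sugars, and the isomerases form disulfide bonds. When unfolded chains build up, BiP leaves the sensors Ern1 (IRE1), Eif2ak3 (PERK) and Atf6. IRE1 splices the Xbp1 mRNA, PERK slows translation and raises Atf4 and Ddit3 (CHOP), and cut Atf6 enters the nucleus. Xbp1 and Atf6 act on chaperone genes through the ER stress element in their promoters. An array probe reads the summed mRNA of a gene, so splicing of Xbp1 and cutting of Atf6 were not measured.

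The ER stress element is CCAAT, 9 bases of any kind, then CCACG. It was searched by exact letters on both strands in the RefSeq promoter table (GRCm38.p6), where each entry runs from 250 bases before to 50 after a gene start. The 9 members other than Atf6 matched an entry. The element was found in 4 of these 9, Hspa5, Hsp90b1, Pdia6 and Calr, and in 39 of all 32851 promoters (0.119%). Shown are the 250 bases before the start of the best known target, Hspa5, of Hsp90b1, which holds 2 copies, and of Pdia4, which holds none and had the largest change of the members. Capitals mark the element, and each sequence is written along the gene's own strand.
Hspa5, chr2:34771840-34772089, plus strand: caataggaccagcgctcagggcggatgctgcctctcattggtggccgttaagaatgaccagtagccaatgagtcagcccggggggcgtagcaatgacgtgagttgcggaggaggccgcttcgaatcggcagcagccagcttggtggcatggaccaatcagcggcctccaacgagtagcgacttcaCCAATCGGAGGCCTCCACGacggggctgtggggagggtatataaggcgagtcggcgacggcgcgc
Hsp90b1, chr10:86705445-86705694, minus strand: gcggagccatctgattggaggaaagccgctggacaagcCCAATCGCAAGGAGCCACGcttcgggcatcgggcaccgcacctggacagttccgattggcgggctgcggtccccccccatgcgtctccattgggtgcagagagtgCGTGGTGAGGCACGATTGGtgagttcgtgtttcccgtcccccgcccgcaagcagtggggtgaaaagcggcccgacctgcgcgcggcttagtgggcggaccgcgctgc
Pdia4, chr6:47813513-47813762, minus strand: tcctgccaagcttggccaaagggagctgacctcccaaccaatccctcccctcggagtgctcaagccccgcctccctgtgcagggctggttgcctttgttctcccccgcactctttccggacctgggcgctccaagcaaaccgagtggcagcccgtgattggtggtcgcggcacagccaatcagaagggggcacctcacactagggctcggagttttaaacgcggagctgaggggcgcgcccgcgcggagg
The copies of Pdia6 and Calr are shown alone for comparison of their middle bases, and the copy of Calr, like the second of Hsp90b1, reads on the strand opposite to the gene.
Pdia6, 98 to 80 bases before the start: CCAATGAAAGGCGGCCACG
Calr, 162 to 144 bases before the start: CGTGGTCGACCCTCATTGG

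The copy in Hspa5 lay 65 to 47 bases before the start, and those in Hsp90b1 at 212 to 194 and 107 to 89 bases before it. Its CCACG end by itself was found in 6 of the 9 member promoters, the same 4 and those of Pdia4 and Dnajb9, and in 32.8% of all promoters. The CCAAT box was in 8 of 9 and in 37.4% of all, and both short motifs overlap the whole element wherever it stands. The core TGACGTG, bound by ATF6 and XBP1, was in Hspa5 (2.01% of all promoters). ERSE-II (ATTGG, 1 base of any kind, then CCACG; 0.0365% of all) and the C/EBP-ATF element TGATGNAAT (0.965% of all) were in none of the 9. These are matches of letters in this window only.

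**Figure D1:**
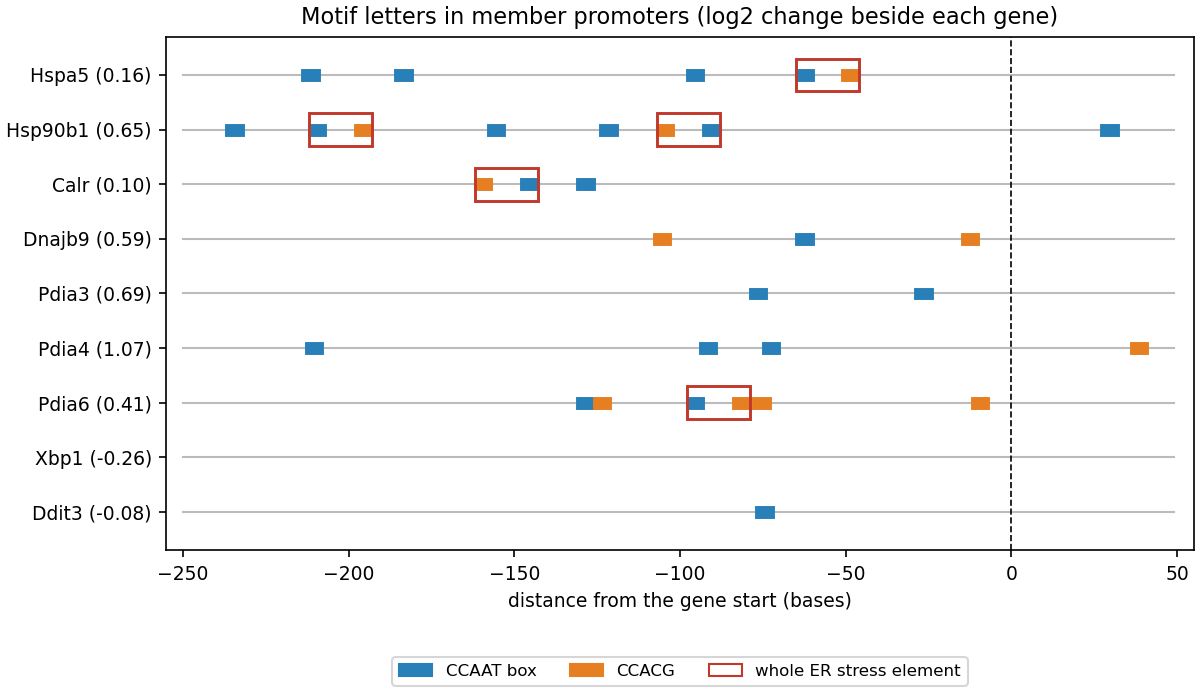
Position of motif letters in the promoter entries of the 9 members with a probe, from 250 bases before to 50 after the gene start (dashed line); filled boxes are CCAAT and CCACG and open boxes the whole ER stress element, and the number beside each gene is its log2 change, DKO minus control. Whole elements stand in Hspa5, Hsp90b1, Calr and Pdia6, and of these 4 only Hsp90b1 passed the expression test.

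The knockout was checked first. Nabp2 read 7.13, 7.09 and 7.05 on the DKO arrays, against 9.35, 9.17, 8.60 and 9.38 on the control arrays (log2 normalized signal, the scale of all levels below). Its log2 change was -2.04 (limma adjusted p = 0.000203). A second Nabp2 probe was at -0.95 (limma adjusted p over the kept probes = 0.00790). Both probes still read above background on all 3 DKO arrays, and whether they lie in the deleted sequence is not known here. Nabp1 stayed under the detection threshold on all 7 arrays, so its probe checks nothing. DKO arrays were brighter, with mean signals of 651 to 670 in DKO and 443 to 615 in controls (exact two-sided permutation p = 0.0571, the smallest the design allows).

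Of the 9 members tested, 4 rose in DKO progenitors and 0 fell. They were Pdia4, Pdia3, Hsp90b1 and Dnajb9. Over all 7547 genes tested, 14.4% were called higher, 12.8% lower and 27.2% either way at an adjusted p under 0.05. The same 4 had every DKO array above every control array, as did 20.3% of all genes. The median log2 change of the 9 members was 0.41, and that of all genes 0.0114. Among the 3 transcription factors and sensors by which the response is usually followed, Atf6 was not analysed here and Xbp1 and Ddit3 did not pass the test. The 4 genes were called higher whichever of the 7 arrays was left out. With the mean signal of each array as a covariate 0 members were called (adjusted p 0.283 to 0.446 for the 4), at log2 changes of 0.61 to 0.74, and of all genes 34 were called higher and 9 lower. Genotype and brightness cannot be told apart here, since every DKO array was brighter than every control array.

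Pdia4 and Pdia3 are disulfide isomerases, and Pdia3 (ERp57) works with Calr on chains that carry sugars. Pdia4 read 8.31, 8.12 and 8.24 on the DKO arrays, against 6.53, 7.14, 7.27 and 7.68 on the control arrays. The lowest DKO array thus lay above the highest control array, control 4, and the controls spread far more widely than the DKO arrays. The means were 8.22 ± 0.0933 (SD, n = 3) in DKO and 7.16 ± 0.476 (SD, n = 4) in controls, a 2.09-fold rise (log2 1.07, SE 0.232, limma adjusted p = 0.0106), larger than that of 97.9% of the genes tested. Without background correction the rise was 0.68 on the log2 scale, and 0.61 in the authors' processed table.

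Pdia3 read 11.70, 11.56 and 11.94 on the DKO arrays, against 10.85, 11.02, 11.11 and 11.19 on the control arrays. The groups were well apart, with the lowest DKO array above the highest control. The rise was 1.61-fold (log2 0.69, SE 0.137, adjusted p = 0.00758 in limma). Before normalization the signal of this probe was 3682 to 4651 on DKO arrays and 1584 to 2728 on control arrays.

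Pdia6, the other isomerase of the group, read 5.89, 6.63 and 6.07 on the DKO arrays, against 5.69, 5.42, 5.98 and 6.05 on the control arrays. The groups overlapped, since DKO array 1 lay below controls 3 and 4, and DKO array 2 stood above the rest. The log2 difference was 0.41 with a 95% interval of -0.06 to 0.88 (limma adjusted p = 0.175), so a rise as large as that of Pdia3 lies within its interval. Without DKO array 2 it was 0.19.

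Hsp90b1, the ER form of the HSP90 chaperone, read 12.51, 12.80 and 12.41 on the DKO arrays, against 11.65, 11.99, 12.00 and 12.07 on the control arrays. Each DKO array was above each control array. The means of 12.57 ± 0.200 (SD, n = 3) in DKO and 11.93 ± 0.189 (SD, n = 4) in controls gave a 1.57-fold rise (log2 0.65, SE 0.149, limma adjusted p = 0.0131). When scaling used only probes that every array detected, the change was 0.35 and the call was lost (adjusted p = 0.0929).

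Dnajb9 (ERdj4) is a J-domain partner of BiP that also binds IRE1. Its detected probe read 8.33, 8.34 and 8.20 on the DKO arrays, against 7.91, 7.81, 7.58 and 7.51 on the control arrays. The groups did not overlap, and the DKO arrays differed by less among themselves than the controls did. The rise was 1.5-fold (log2 0.59, SE 0.135, limma adjusted p = 0.0129), and 0.37 on the log2 scale in the authors' processed table. The other Dnajb9 probe did not reach the detection threshold on any array and gives no value. The kept probes were also fitted by themselves, where 13.5% of 10723 were called higher. In that fit the detected Dnajb9 probe had an adjusted p of 0.0152, and without DKO array 1 of 0.0560.

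Hspa5 encodes BiP, the chaperone at the centre of the response. It read 7.48, 7.20 and 7.16 on the DKO arrays, against 7.05, 6.84, 7.05 and 7.53 on the control arrays. Control 4 was the highest of the 7, above all DKO arrays, while the other controls lay below them. The log2 difference was 0.16, with a 95% interval of -0.23 to 0.55 (limma adjusted p = 0.513). It was 0.0601 without DKO array 1, 0.0703 without control 2 and 0.30 without control 4, and was not called in any of these (adjusted p 0.147 to 0.857). Before normalization the probe's signal was 285 to 359 on DKO arrays and 184 to 320 on control arrays.

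Calr, calreticulin, read 6.02, 5.66 and 6.35 on the DKO arrays, against 5.24, 6.06, 5.67 and 6.69 on the control arrays. Both the lowest and the highest value came from controls, arrays 1 and 4, and the probe was above background on 3 of 4 control arrays. The log2 difference was 0.0977 with a wide interval, -0.59 to 0.79 (limma adjusted p = 0.83). It turned sign without DKO array 3 (-0.0767) and without control array 1 (-0.13).

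Among the transcription factors, Xbp1 read 11.01, 10.96 and 11.09 on the DKO arrays, against 11.24, 10.89, 11.52 and 11.48 on the control arrays. The DKO arrays lay close together, below 3 of the 4 controls and above control 2. The log2 difference was -0.26 (95% interval -0.63 to 0.11, limma adjusted p = 0.260), and -0.47 when scaling used the detected probes (adjusted p = 0.0508).

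Ddit3, the factor CHOP induced through PERK, had a pair of probes. The brighter read 8.44, 8.02 and 8.75 on the DKO arrays, against 8.92, 8.57, 8.47 and 7.99 on the control arrays. The groups overlapped over nearly their whole range, with DKO array 2 and control 4 at the low end. The log2 difference was -0.0822 (95% interval -0.61 to 0.44, limma adjusted p = 0.811), and that of the second probe -0.20 (adjusted p over the kept probes = 0.446). Leaving out DKO array 2 or control array 1 turned the sign of the first, to 0.11 and 0.0619.

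**Figure D2:**
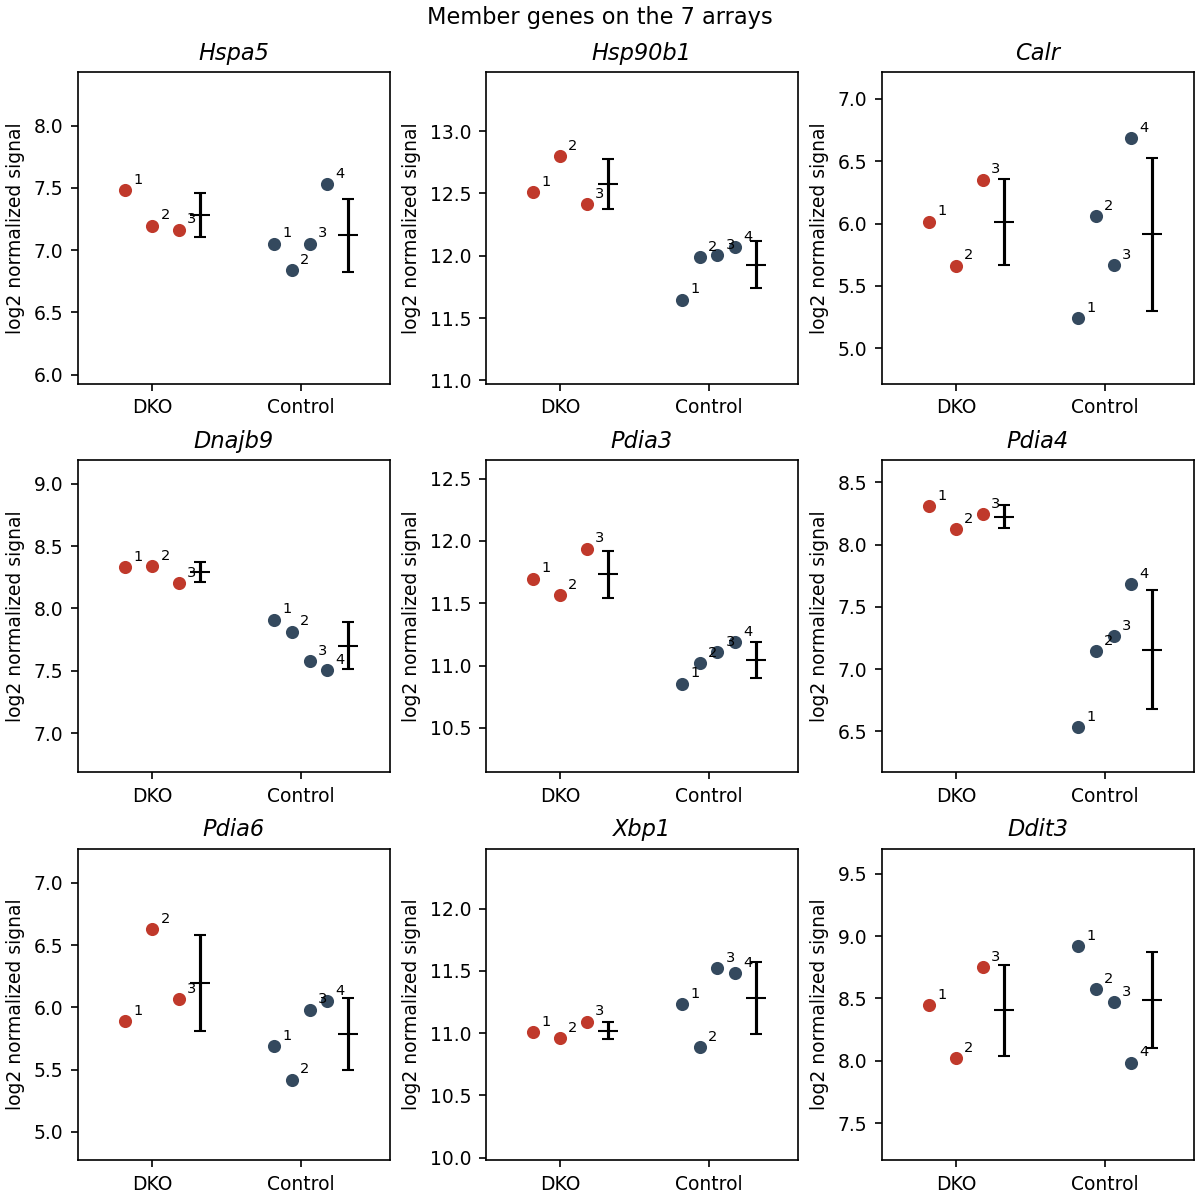
Log2 normalized signal of the 9 members on each array, DKO left of control, with array numbers beside the points and mean ± SD at the right of each group; each panel spans the same 2.5 log2 units. DKO arrays lie above all controls for Hsp90b1, Dnajb9, Pdia3 and Pdia4, and the groups overlap for the other 5.

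**Figure D3:**
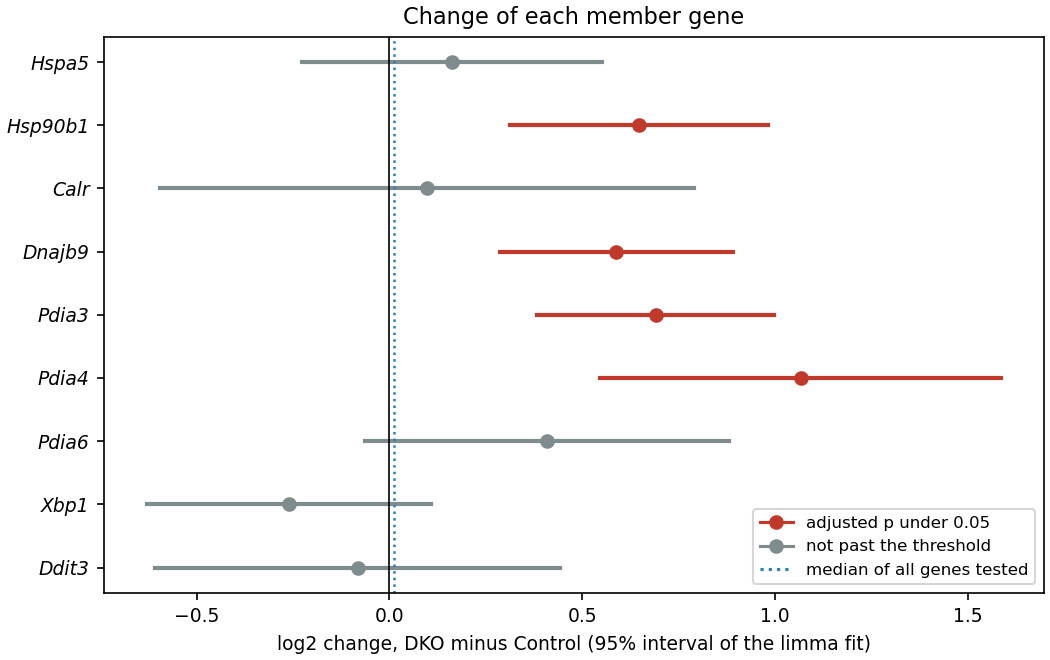
Log2 change of each member, DKO minus control, with its 95% interval from the limma fit; red marks an adjusted p under 0.05 and the dotted line the median of all genes tested. The intervals of Hsp90b1, Dnajb9, Pdia3 and Pdia4 lie above 0, and those of the other 5 include it.

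A call for some members and not for Hspa5 does not show that they differ, so the log2 difference between each member and Hspa5 was taken within each array and compared between groups. The 8 pairs were chosen after the values had been seen. For Pdia4 it was 0.90 larger in DKO than in controls and for Pdia3 0.53 larger, with no overlap of the groups in either (exact two-sided permutation p = 0.0571 each, the smallest the design allows, and 0.152 adjusted over the 8 pairs). For Xbp1 the difference was -0.42 and every DKO array lay below every control array (same exact p and adjusted p). For Hsp90b1 it was 0.48 and for Dnajb9 0.43, and both overlapped (exact permutation p = 0.114 and 0.171, adjusted p = 0.229 and 0.274). No pair passed the threshold, which this design could not reach.

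The members did not vary as 1 block among arrays of the same group. After subtraction of group means, Pearson correlations over the 7 arrays had a median of 0.11 in 36 pairs and ran between -0.91, for Hsp90b1 with Ddit3, and 0.86. Values above 0 were found in 20 pairs. Ddit3 and Dnajb9 were below 0 with each of the other members, and at 0.51 with each other. Dnajb9 was at -0.86 with Pdia4 and at -0.84 with Pdia3. Among the members other than Ddit3 and Dnajb9 the lowest value was -0.037, for Pdia3 with Pdia6. Arrays share brightness and labelling, and no test is attached. Control 4, the brightest control at a mean signal of 615, was the highest control for Hspa5, Hsp90b1, Pdia3, Pdia4, Pdia6 and Calr, and the lowest for Ddit3 and Dnajb9. Without control 4 the log2 change was 0.36 for Calr, 1.24 for Pdia4 and -0.25 for Ddit3, and the 4 calls stood. Outside the members, the 5 genes most like Hspa5 over the 7 arrays were Zfp24, Chd4, Cbx3, Ppp1r8 and Zfp606, with Pearson correlations of 0.956 to 0.988. Within groups, on the same arrays, these were 0.956 to 0.993. The 5 genes were picked as the highest among all genes tested, and such a choice over 7 arrays can give high values by itself. None of them was called (adjusted p 0.322 to 0.745).

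Both the sizes and the order of the changes moved with the processing. In the authors' processed table Pdia4, at 0.61, came after Pdia3 at 0.68 and Hsp90b1 at 0.65. Under both median scalings Dnajb9 came next after Pdia4. Setting the median of all probes equal on every array, though most were not detected, moved the median gene by 0.52 on the log2 scale, and scaling to the probes detected on all arrays moved it by -0.14. Both scalings shift each array by a constant. The order of genes, and their values after subtraction of the median gene, are therefore the same in both by construction. These values were 1.18 for Pdia4, 0.74 for Dnajb9, 0.60 for Pdia3 and 0.50 for Hsp90b1, against 0.26 for Hspa5, 0.33 for Pdia6 and -0.33 for Xbp1. Without that subtraction, 7 members were called higher under the first scaling and 3 under the second. The additional 3 under the first were Hspa5 (0.78), Pdia6 (0.86) and Ddit3 (0.59). Of genes called under the first scaling 97.0% were higher, and under the second 30.5%, against 52.95% under quantile normalization.

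**Figure D4:**
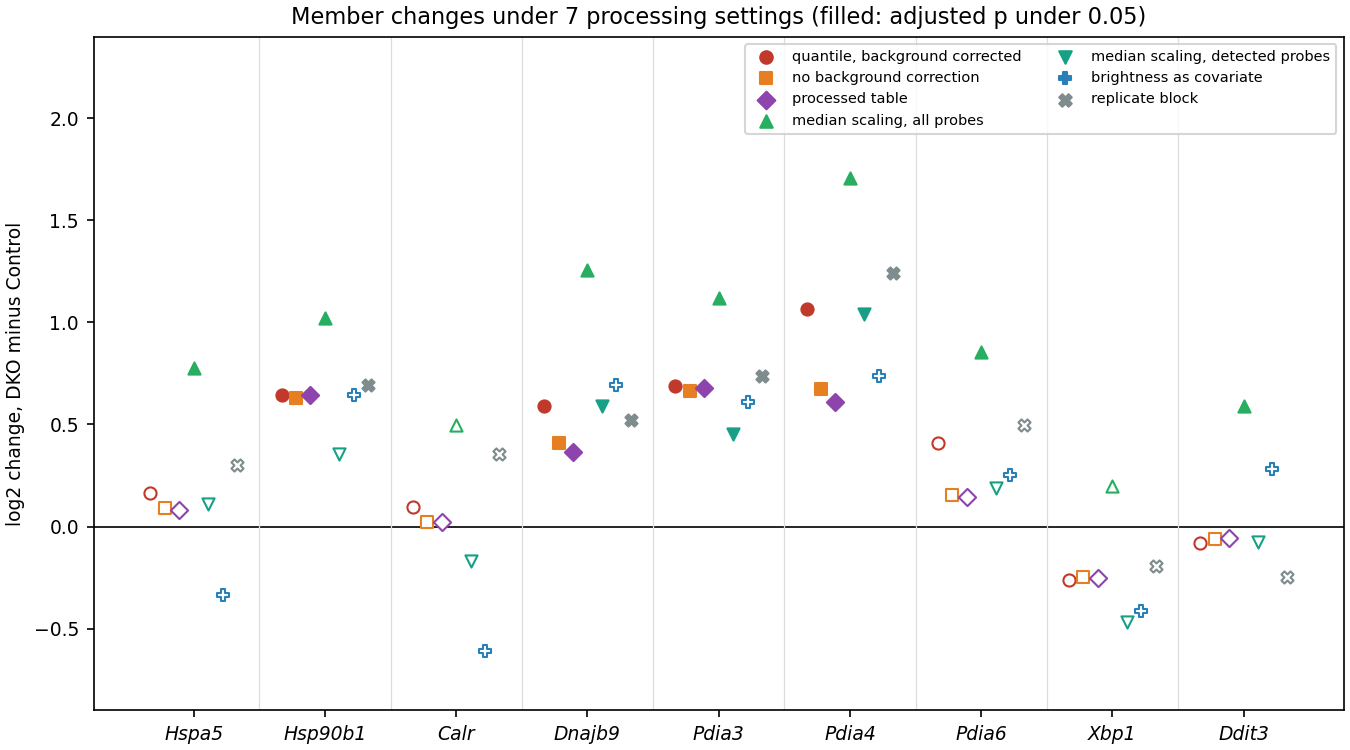
Log2 change of each member, DKO minus control, under 7 processing settings, filled where the adjusted p was under 0.05. Hsp90b1, Dnajb9, Pdia3 and Pdia4 are above 0 in all 7 and filled in most, Xbp1 and Ddit3 change side under median scaling over all probes, and Calr, Hspa5 and Ddit3 also change side under at least 1 of detected-probe scaling and the brightness covariate.

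Other genes of the ER were read from lists of 188 genes, of which 135 were tested. Of these, 20 rose and 15 fell, or 14.8% and 11.1%, close to the shares of all genes (14.4% and 12.8%). The same shares of all genes apply beside the counts of each list below. The median log2 change of the 135 was 0.0996. With the all-probe scaling 77 rose and 0 fell, and with the detected-probe scaling 16 rose and 26 fell. The counts also depended on single arrays, with 9 rising and 10 falling without DKO array 1 and the same numbers without DKO array 3, 13 and 11 without DKO array 2, and 11 and 14 without control 3. The genes named below were taken by size of change among those called.

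Of 29 other folding genes, 4 rose and 5 fell, and 1 that rose, Hyou1, was detected on 0 control arrays and passed the filter through the DKO arrays alone. The prolyl isomerase Fkbp11 rose 2.05-fold (log2 1.04, SE 0.257, limma adjusted p = 0.0173), the isomerase Pdia5 by 0.60 and Ganab, a glucosidase that trims sugars for the calreticulin cycle, by 0.56. The thioredoxin-like Tmx1 fell by 0.93 (limma adjusted p = 0.00919) and the chaperone Erp29 by 0.61. Calls were lost for Fkbp11 without DKO array 2 or 3 (adjusted p = 0.0568 and 0.0646), for Pdia5 without the same arrays (0.0685 and 0.0800) and for Ganab without DKO array 3 (0.0537), and without DKO array 3 no folding gene was called higher. Tmx1 and Erp29 were not called under median scaling over all probes (log2 change -0.28 and -0.31).

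Of 25 genes that carry misfolded proteins out for degradation, 3 rose and 4 fell. Herpud1 was among those that rose, and it is counted again and described with the targets of PERK below. Derl2, a channel component, fell by 0.81 (limma adjusted p = 0.00995), the ubiquitin ligase Rnf139 by 0.67 and Edem2, which trims mannose, by 0.51, but under median scaling over all probes none of the 3 was called, with Derl2 at -0.14, Rnf139 at -0.0857 and Edem2 at 0.0264. The ubiquitin-conjugating enzyme Ube2g1 rose by 0.59 (limma adjusted p = 0.00611) and Faf2, which recruits the extractor Vcp, by 0.41. Faf2 was not called without 6 of the 7 arrays, control 2 being the exception (adjusted p 0.0645 to 0.131), Rnf139 without DKO array 3 (0.0557), and Edem2 without DKO array 1 (0.0644).

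Of 15 sensors and signalling genes, 3 rose and 2 fell. Ppp1r15b, a regulatory subunit of the phosphatase that restores translation after PERK, fell by 0.78 (limma adjusted p = 0.00600) and the ER-bound factor Creb3 by 0.52, but under median scaling over all probes they were at -0.12 and 0.15 and not called. The RNA ligase Rtcb, which joins the cut Xbp1 mRNA, rose by 0.56, and Mbtps1, the protease that cuts Atf6, by 0.47. Traf2, an adaptor of IRE1, was detected on every DKO array and on 0 control arrays. Its log2 change was 0.85 (limma adjusted p = 0.00377), from control values below background. It passed the filter through the DKO arrays alone, so its place among the 3 that rose rests on those control values. When scaling used the detected probes it was not called (log2 change 0.28, adjusted p = 0.239). A bound sets each control array at the higher of the probe's value and the lowest detected value of the array. By this bound Traf2 was at least 1.12-fold higher in DKO, and no test was run on it. DKO array 1, at 5.22, lay below the lowest detected values of controls 1 and 3 (5.28 and 5.42). The sensor PERK itself (Eif2ak3), named after its value was seen, was at -0.27 (adjusted p = 0.138 in limma). Without any 1 of the DKO arrays Traf2 no longer passed the filter and was not tested. Rtcb was called only without DKO array 2 or control 4 among the 7 fits that left out an array (adjusted p 0.0558 to 0.128 in the others), and Mbtps1 only without DKO array 3, control 1 or control 3 (0.0660 to 0.119 in the others). Creb3 lost its call without DKO array 2 or 3 (0.0577 and 0.0707).

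Of 12 targets of PERK, Atf4 and CHOP, 4 rose (33.3%, against 14.4% of all genes) and 1 fell (8.33%, against 12.8%). The mTOR inhibitor Ddit4 rose by 2.15 on the log2 scale (limma adjusted p = 0.000850), the stress protein Nupr1 by 1.42 (1.37 with values below background raised to each array's detection floor) and the killer protein Bbc3 by 0.89. Ddit4 and Bbc3 are also targets of p53, and this list does not separate the pathways. Atf4, the factor translated when PERK is active, fell by 0.74 (limma adjusted p = 0.0141), and was at -0.0823 under median scaling over all probes and not called there, nor without DKO array 2 (adjusted p = 0.0508). Herpud1, a degradation factor induced in ER stress, rose by 0.35 (limma adjusted p = 0.0461), a call lost without any 1 of the 7 arrays (0.0596 to 0.127).

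Of 28 genes of translocation and N-glycosylation, 2 rose and 0 fell. They were Spcs3, a subunit of the signal peptidase, by 0.82 (limma adjusted p = 0.00399) and Srpr, the receptor of the signal recognition particle, by 0.52 (limma adjusted p = 0.0230). Srpr lost its call without DKO array 1, DKO array 2 or control 3 (adjusted p 0.0542 to 0.0756). Of 27 genes of transport to the Golgi, 5 rose and 3 fell. Lman2, a cargo receptor for sugar chains, rose by 0.71 (limma adjusted p = 0.00315), the coat protein Sec24b by 0.56 and the coatomer subunit Arcn1 by 0.55. The cargo receptor Tmed3 fell by 0.66, and Kdelr2, which returns chaperones such as BiP to the ER, by 0.63 (limma adjusted p = 0.0200), but under median scaling over all probes Kdelr2 was at 0.00209 and Tmed3 at -0.0127, neither of them called. Single arrays ended the calls of Arcn1 (all but control 4, adjusted p 0.0791 to 0.116), Sec24b (DKO 1, DKO 3 and control 3, 0.0529 to 0.0931), Kdelr2 (DKO 1 and DKO 2, 0.0575 and 0.0682) and Tmed3 (DKO 1, 0.0777).

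Several of these changes were over 1.5 times smaller in the authors' processed table, which kept their direction. There Nupr1 was at 0.53, Ddit4 at 1.41, Pdia5 at 0.26, Mbtps1 at 0.29 and Arcn1 at 0.22 on the log2 scale. Among genes that fell, Tmx1 was at -0.56, Ppp1r15b at -0.45 and Rnf139 at -0.28. Bbc3 was at 0.52 when the probes of a gene were averaged.

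**Figure D5:**
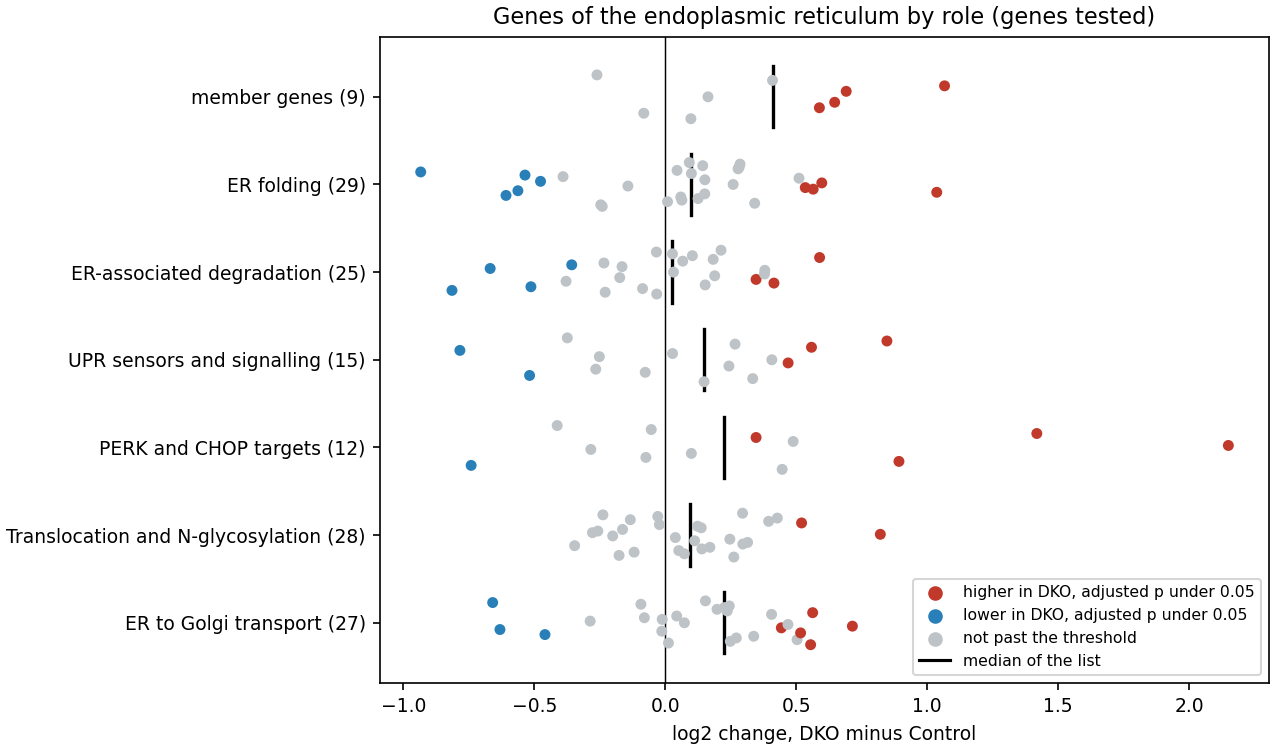
Log2 change, DKO minus control, of each tested gene by role in the ER, with the number tested in brackets, the list median as a bar, and colours for genes called higher or lower under quantile normalization. The members' median is 0.41 and those of the other 6 lists run between 0.0273 and 0.23; under median scaling over all probes no gene of these lists is called lower.

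Members included, the ER stress element was found at 37 genes, of which 9 were tested. The 5 that are not members, Syvn1, Dnajc3, Creld2, Pan2 and Alg12, had a median log2 change of 0.00849 and none was called (limma adjusted p 0.226 to 0.966). These genes were chosen after the data were seen and get no test as a group. Among all 9, only Hsp90b1 was called. The other members that rose, Pdia3, Pdia4 and Dnajb9, did not hold the whole element in the window searched.

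Secretory cells such as plasma cells, granulocytes and mast cells use many ER chaperones, so markers of other lineages are given beside these results. Of all genes tested, 14.4% were called higher and 12.8% lower, the shares that apply beside the marker counts. Of 18 B-lineage markers 7 were tested and called lower, but 5 of these were detected on at most 1 DKO array and passed the filter through the controls alone, so the count was largely set by the filter. The summed signal of the 7 was 237 to 356 on DKO arrays and 995 to 2170 on control arrays (linear normalized units). Among them Mzb1, an ER partner of Hsp90b1 in B cells, had a log2 change of -2.73 (limma adjusted p = 0.000342), or -2.66 with DKO arrays raised to their detection floor. For Vpreb3 it was -3.50 (-3.20 at the floor) and for Vpreb1 -2.78. In the authors' processed table these were -1.12 for Mzb1, -1.56 for Vpreb3 and -1.49 for Vpreb1. The plasma cell markers Jchain, Prdm1, Irf4, Sdc1 and Tnfrsf17 were not above background on enough arrays to be tested. Of 10 neutrophil and monocyte markers tested of 14, 4 rose, 1 fell and 5 were not called. Their summed signals of 1873 to 3621 in DKO and 990 to 1987 in controls overlapped. Lyz2, the 1 that fell, was at -1.14 (limma adjusted p = 0.00385), with every DKO array below every control array. Ctsg, S100a8 and Mpo rose by 1.53, 1.45 and 1.30 (Ctsg 0.88 and Mpo 0.84 in the processed table). The remaining marker that rose, Ms4a3, was detected on 0 control arrays. S100a8 lost its call without DKO 2, DKO 3 or control 4 (adjusted p 0.0639 to 0.101). Of 3 mast cell and basophil markers tested of 12, Hdc and Cpa3 rose by 1.59 and 0.94 (0.88 for Cpa3 at the floor, and 0.62 and 0.34 in the processed table) and Fcer1a was at -0.18, with summed signals of 218 to 332 in DKO and 110 to 213 in controls, and 9 including Mcpt8 and Prss34 were not detected on enough arrays. The call of Cpa3 was kept only without DKO 2 or control 1 among the fits that left out an array (adjusted p 0.0604 to 0.134 in the others). The part of these cells in the rise of the 4 members was not tested, and in bulk samples fewer cells of a type and less RNA per cell cannot be told apart. The 16 markers of the sorted population that were on the array were all tested, and 3 rose (18.8%) and 1 fell (6.25%). Of the 3, Gp1bb was detected on 3 DKO arrays and 1 control array, and met the filter through the DKO arrays. It was at 0.86 with overlapping groups (limma adjusted p = 0.0440). The summed signal of the 16 markers, 40226 to 45055 in DKO and 39750 to 46327 in controls, overlapped, but such a sum follows its brightest genes. Every DKO array lay below every control array for 4 of the 16, Rhd, Car2, Gata1 and Klf1, and above for 2, Itga2b and Nfe2. Over all 7547 genes these counts were 1368 and 1535, the latter 20.3%. Gata1 was at -0.48 and Klf1 at -0.32, neither called (limma adjusted p = 0.0524 and 0.0522). Itga2b rose by 1.99 and Rhd fell by 1.11 (1.12 and -0.51 in the processed table). Car2 stood at -0.88 (limma adjusted p = 0.0698), at -0.38 without DKO array 2 and at -1.16 without DKO array 1 (adjusted p = 0.0490), and it was called lower in 6 of 10 other alternatives.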

How the data were processed

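Gene expression was measured on Illumina MouseRef-8 v2.0 arrays in a single colour, per the labels. GenomeStudio is named in the submitters' processing notes, with neither version nor settings. Per the file headers, the authors deposited for each probe an intensity, not normalized, and its detection p-value. A processed table deposited by the authors is on a log2 scale. Set against the signals, it correlated at 0.999 with quantile-normalized log2 signals centred per probe (across probes and arrays, not independent replicates), and ran in the same direction. Its column medians were 0.00164 to 0.00513, and the baseline of its centring is unknown.

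Signals were read in R 4.3.3 with limma 3.58.1 (neqc: background from the detection p-values, offset 16, quantile normalization, log2). Probes with a detection p under 0.05 on at least 3 arrays were kept, 10723 of 25697. Of all probes, 23978 had 1 gene symbol, 0 several and 1719 none. A gene was its kept probe with the highest mean, giving 7547 genes. Of 251 listed symbols, 229 were found on the array. Tests were two-sided, by limma's lmFit and eBayes, and p-values were adjusted by Benjamini-Hochberg over all genes tested, with calls at 0.05. Fold changes and intervals (95%) are from this fit. It was tried on simulated data with few changed genes, independent noise and no difference in brightness, a setting unlike these data. Each group has few arrays, and their number limits the precision. Permutation tests used scipy 1.17.1.

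The members, lists and tests were chosen with earlier results of these data known. From each pathway list up to 5 called genes with the largest change were named, from each marker list the 3 with the largest change, and the 5 genes most correlated with Hspa5. Alternatives were no background correction, median scaling over all or over detected probes, the processed table, other filters, averaging the probes of a gene, eBayes with trend and robust options, brightness as a covariate, a replicate block, and leaving out each array.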

Additional observations from a re-analysis of the deposited data

How the results depend on the processing

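The count of 4 members higher and 0 lower was the same under no background correction, the processed table, both other filters, the mean of a gene's probes, the variance trend, the replicate block and leaving out each array. It was 7 higher under median scaling over all probes, 3 under median scaling over detected probes, and 0 once brightness was a covariate. The members' median of 0.41 was 0.15 when background was not corrected, 0.15 with the processed values, 0.86 and 0.19 when scaled by the median of all and of detected probes, 0.59 with detection on all arrays, which drops Calr and Pdia6, and 0.28 with the covariate. Leaving out 1 array it ran between 0.26 and 0.55. Genes called were 1086 higher and 965 lower. They were 3772 and 116 under median scaling over all probes, 779 and 1775 over detected probes, 34 and 9 with the covariate, and 724 and 631 with the replicate block. Leaving out 1 array, between 554 and 1037 were higher and between 517 and 906 lower. Pathway genes called, 20 higher and 15 lower, were 77 and 0 under median scaling over all probes, 26 lower over detected probes, 0 and 0 with the covariate, and 13 and 9 with the replicate block. Leaving out 1 array, between 9 and 18 were higher and between 10 and 16 lower.

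Signs turned as follows. Under median scaling over all probes Xbp1 was at 0.20, Ddit3 at 0.59 and 0.47 for its 2 probes, Edem2 at 0.0264, Creb3 at 0.15, Kdelr2 at 0.00209 and Fcer1a at 0.14, and Calr was at -0.17 over detected probes. With the covariate Hspa5 was at -0.33, Calr at -0.61 and Ddit3 at 0.28. With 1 array left out, Ddit3 ran between -0.26 and 0.11, and was above 0 without DKO array 2 (0.11) and control array 1 (0.0619). Calr ran between -0.13 and 0.36, below 0 without DKO array 3 (-0.0767) and control array 1 (-0.13). Fcer1a ran between -0.30 and 0.04, above 0 without control array 1 (0.0399). Of the 4 members that rose, Hsp90b1 lost its call over detected probes (0.35). Arrays of the same replicate number did not deviate together (correlations -0.17, -0.0160 and 0.0277) and did not each correlate best with their own number, so the replicate block rests on a number only. The block also takes control 4, which has no DKO array of the same number, out of the comparison. It ended no call of the 4 genes (adjusted p 0.0203 to 0.0481), and for the probe of Dnajb9 gave 0.0561. With scaling excepted, whose construction moves the median gene, the cause of these shifts was not tested. Signal close to background limits Calr and Pdia6.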
